A study of Arabidopsis thaliana with 9 samples.

Results

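Seedlings of zmp-2 were compared with seedlings of zmp-1, the 2 T-DNA insertion alleles of the same Arabidopsis gene that the study used, gene by gene and across all nuclear and organellar genes counted. The comparison took all 6 mutant libraries of a series of 9, chosen by the genotype in the sample labels, with the 3 WT libraries used as a reference level. zmp-2 is line SALK_008955, zmp-1 is line SALK_066029, and WT is the Col-0 ecotype. No further allele, transgene or treatment is named for any group. The labels give 12-day-old seedlings grown in long days. A figure legend of the study also names seedlings for the RNA-seq of ZMP, whereas its methods name inflorescences. Each allele is a single insertion line, so a difference made by the allele and a difference carried elsewhere in the genome of that line cannot be told apart here. Of 37336 genes in the count tables, 18109 had enough counts to be tested.

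ZMP (AT5G63700) encodes a protein with a PHD finger, a SWIB/MDM2 domain and a Plus-3 domain, found in association with RNA polymerase IV. Polymerase IV is a plant polymerase that transcribes transposons and repeats, and its transcripts are made into 24-nt siRNAs that direct DNA methylation. A pair of insertion alleles of 1 gene is used in plant genetics to separate what follows from losing that gene from what belongs to a single line. The question addressed by zmp-2 against zmp-1 is therefore how far the transcriptomes of the 2 lines differ.

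Levels are given as RPM, the count of a gene per 1000000 reads of its library, after edgeR's TMM scaling of the library total. Differences are zmp-2 minus zmp-1 on the log2 scale, so a positive value is a higher level in zmp-2. A gene was called where the adjusted p-value of edgeR's quasi-likelihood test, corrected by Benjamini-Hochberg over all 18109 genes, was at most 0.05. Library totals were 14390276 to 14522744 counts in zmp-2, 5815211 to 25182435 counts in zmp-1 and 8849896 to 14561647 counts in WT. zmp-1 replicate 1 was the deepest library and zmp-1 replicate 2 the shallowest. A floor of 3 counts corresponded to 0.207 to 0.208 RPM in zmp-2, 0.119 to 0.516 in zmp-1 and 0.206 to 0.339 in WT. Chloroplast genes took 62.8 ± 2.99% of the counts in zmp-2, 64.1 ± 1.52% in zmp-1 and 59.7 ± 4.0% in WT (SD, n = 3 each). The summed level of 5 leaf markers was 8086 to 8426 RPM in zmp-2, 6205 to 8680 in zmp-1 and 7019 to 8488 in WT. The 7 flower markers summed to 1.64 to 1.79 RPM in zmp-2, 1.34 to 3.40 in zmp-1 and 1.62 to 3.05 in WT, and 2 of the 7 had no count in any mutant library, so leaf markers were present and flower markers were close to absent. Because whole seedlings were sampled, fewer cells of a type and less RNA per cell cannot be told apart.

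4 genes were called between the alleles, 2 of them higher and 2 lower in zmp-2, which is 0.0221% of the genes tested. The sequences upstream of the 3 protein-coding ones are shown first, since these are the genes on which the 2 alleles part most clearly. Each is the 150 bases before the annotated start, read on the strand of the gene from TAIR10.1, with any TATAAA on either strand in capitals. XTH31 lies on the minus strand (chr3:16448845-16448994), AT3G44970 on the plus strand (chr3:16432136-16432285) and AT5G11330 on the minus strand (chr5:3618914-3619063).
XTH31: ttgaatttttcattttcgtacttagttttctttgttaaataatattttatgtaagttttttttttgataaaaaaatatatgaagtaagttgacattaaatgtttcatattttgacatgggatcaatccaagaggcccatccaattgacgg
AT3G44970: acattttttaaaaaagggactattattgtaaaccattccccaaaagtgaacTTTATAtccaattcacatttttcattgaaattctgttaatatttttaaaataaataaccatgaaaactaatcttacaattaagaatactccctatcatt
AT5G11330: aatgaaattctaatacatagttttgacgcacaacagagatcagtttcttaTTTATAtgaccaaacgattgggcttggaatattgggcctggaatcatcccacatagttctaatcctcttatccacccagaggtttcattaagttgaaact
TAIR10 and TAIR10.1 share their nuclear coordinates for the genes that could be compared (475 of 483 genes of a list of the study had the same start and end, and 483 were within 1 base). In the windows of AT3G44970 and AT5G11330 TATAAA was present on the strand opposite to the gene only, printed as TTTATA. It was on neither strand in the window of XTH31. Of the 27443 protein-coding genes, 34.0% had it on either strand in a window of this length. The G-box hexamer CACGTG was in none of the 3 windows and in 4.78% of all windows.

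ZMP itself (chr5:25493707-25497764, minus strand) was read as a check of the labels. It had 1.502, 1.00 and 1.32 RPM in zmp-2, against 2.14, 3.00 and 2.83 in zmp-1 and 5.53, 6.76 and 7.48 in WT. All 3 zmp-2 libraries lay below all 3 zmp-1 libraries, and both alleles lay below WT. The log2 difference between the alleles was -1.01 (SE 0.28), a 2.01-fold lower level in zmp-2. Its unadjusted p of 0.00388 by edgeR's quasi-likelihood test became an adjusted p of 0.944 over all genes, and the exact permutation test (two-sided) on these 6 values gave p = 0.1, the smallest that 3 against 3 libraries allow. With every library thinned to the total of the shallowest, the log2 difference was -0.68 with an unadjusted p of 0.123. ZMP was counted over the whole gene, so residual counts in an insertion line can be transcripts of a part of the gene. The study reports that reads 3' of the insertion sites were few or absent in the mutants, and the counts used here do not show position. The tested genes that flank ZMP did not share this difference: AT5G63680, a pyruvate kinase family gene on one side, differed by 0.11 (SE 0.22), and AT5G63710, a leucine-rich repeat kinase gene on the other, by 0.02 (SE 0.20). Of the 3 tested genes on each side of ZMP, none had an unadjusted p under 0.05.

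XTH31 (AT3G44990, chr3:16446935-16448844, minus strand) had the smallest p-value of all genes tested. It encodes a xyloglucan endotransglucosylase/hydrolase, an enzyme class that cuts and rejoins the xyloglucan chains which tether cellulose in the growing wall. XTH31 had 12.3, 22.1 and 16.2 RPM in zmp-2, against 0.293, 0.530 and 0.567 in zmp-1 and 3.62, 5.45 and 6.26 in WT. Every zmp-2 library was above every WT library, and every zmp-1 library was below every WT library. The difference was 5.40 on the log2 scale (SE 0.39), a 42.2-fold higher level in zmp-2, with an adjusted p of 0.000229 in edgeR's quasi-likelihood test. Relative to WT, XTH31 differed by 1.72 in zmp-2 and by -3.68 in zmp-1 on the log2 scale, and it was called in both of these comparisons. The interval of the difference between the alleles ran from 4.56 to 6.24. XTH31 overlapped no other annotated gene and had no copy at 95% identity over 50% of its length.

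AT3G44970 (chr3:16432286-16435124, plus strand), a cytochrome P450 gene 2 loci from XTH31 on the same chromosome, moved the other way. Cytochrome P450 enzymes of plants oxidise a wide range of hormones, lipids and specialised metabolites, and no substrate is given for this one. AT3G44970 had 4.98, 4.86 and 3.31 RPM in zmp-2, against 16.9, 14.1 and 21.7 in zmp-1 and 3.43, 3.48 and 4.45 in WT. The zmp-2 libraries overlapped the WT libraries, and the zmp-1 libraries all lay above both. The difference was -2.01 (SE 0.23, adjusted p 0.0116, edgeR), that is, a 4.02-fold lower level in zmp-2.

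The rest of this stretch of chromosome 3 showed no such difference. AT3G44980, the only annotated gene between AT3G44970 and XTH31, had no count in any of the 9 libraries, and neither had VPS24.2 (AT3G45000), the next gene beyond XTH31. Beyond these, scpl48 (AT3G45010), a serine carboxypeptidase-like gene, had 9.56, 10.9 and 9.41 RPM in zmp-2, against 8.54, 12.9 and 10.9 in zmp-1 and 8.49, 13.2 and 11.6 in WT. AT3G44960, on the far side of AT3G44970, had 0.819, 1.08 and 2.19 RPM in zmp-2, against 1.05, 1.06 and 0.567 in zmp-1 and 1.53, 1.05 and 0.303 in WT. Of the 20 annotated genes nearest to XTH31, 10 on each side, 10 besides AT3G44970 had enough counts to be tested, and their differences ran from -0.52 to 0.67 with no unadjusted p under 0.05. The 2 called genes of this stretch, XTH31 and AT3G44970, therefore differed in opposite directions, with genes around them that had no counts or did not pass.

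**Figure D1:**
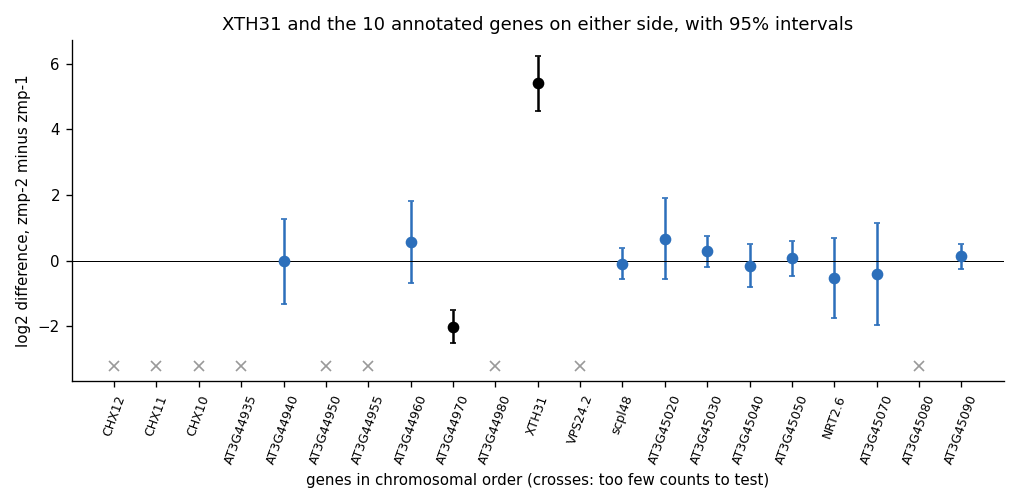
The difference zmp-2 minus zmp-1 on the log2 scale with its 95% interval (vertical axis) for XTH31 and the 10 annotated genes on either side of it in chromosomal order (horizontal axis); crosses mark genes with too few counts to test, and black points the called genes. XTH31 stands at 5.40 and AT3G44970 at -2.01, while the intervals of all the other tested genes contain 0.

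AT5G11330 (chr5:3617138-3618913, minus strand), annotated as a FAD/NAD(P)-binding oxidoreductase family gene, was lower in zmp-2. AT5G11330 had 7.92, 7.09 and 6.36 RPM in zmp-2, against 19.7, 19.4 and 23.2 in zmp-1 and 18.21, 18.7 and 16.1 in WT. The zmp-2 libraries lay below all the others, and the zmp-1 libraries lay just above the WT libraries. The difference was -1.54 (SE 0.16, adjusted p 0.00727, edgeR), a 2.92-fold lower level in zmp-2. Its neighbour AT5G11340 had 7.99, 8.63 and 7.82 RPM in zmp-2, against 7.87, 8.66 and 7.65 in zmp-1, a difference of 0.02 (SE 0.16).

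AT3G06355 (chr3:14199575-14200076, plus strand) is annotated as a long non-coding RNA and overlaps AT3G41979, a ribosomal RNA gene on the same strand. It has 1 further near-identical copy in the genome, so its counts are uncertain. AT3G06355 had 139.7, 159 and 105 RPM in zmp-2, against 33.6, 14.3 and 32.3 in zmp-1 and 172, 108 and 114 in WT. zmp-2 overlapped WT and zmp-1 lay below both. The difference was 2.31 (SE 0.31, adjusted p 0.0476, edgeR).

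**Figure D2:**
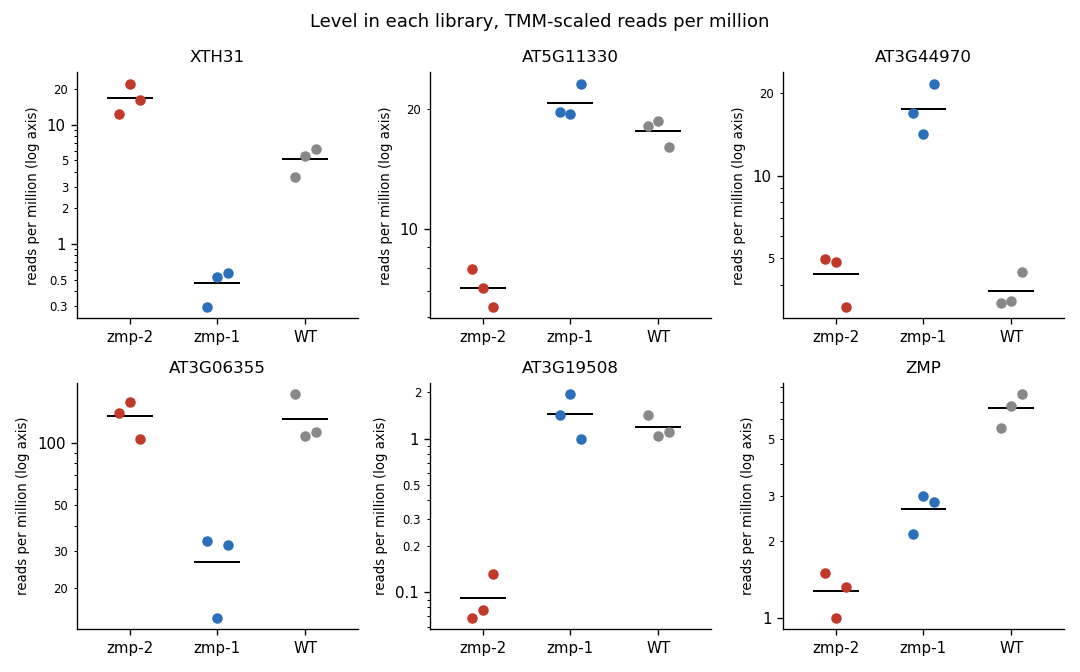
The level of the 4 called genes, of AT3G19508 and of ZMP in each library, in TMM-scaled RPM on log axes (vertical), by genotype (horizontal); points are libraries and bars the mean of 3. XTH31 sits at 12.3 to 22.1 in zmp-2 and 0.293 to 0.567 in zmp-1, with WT between them.

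The number of called genes depended on single libraries. It was 2, 1 and 2 without zmp-2 replicate 1, 2 and 3, and 27, 3 and 1 without zmp-1 replicate 1, 2 and 3. Among the 27 called without zmp-1 replicate 1, 24 were higher in zmp-2 and 11 were snRNA or snoRNA genes. XTH31 was called in each of the 16 alternatives in which it was tested, AT5G11330 in 14 of 17, AT3G44970 in 12 of 17 and AT3G06355 in 12 of 17. AT5G11330 was not called without zmp-2 replicate 2 or 3 or without zmp-1 replicate 3, where its adjusted p in edgeR reached 0.0708. AT3G44970 was not called without any one of the zmp-2 replicates, without zmp-1 replicate 3 or with thinned libraries (adjusted p up to 0.102), and AT3G06355 without any one of the zmp-2 replicates or without zmp-1 replicate 2 or 3 (adjusted p up to 0.240). DESeq2 called 16 genes, among them these 4.

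Below the threshold, 789 genes had an unadjusted p under 0.05, which is 4.36% of those tested. Of these, 372 were higher in zmp-2 (2.05%) and 417 lower (2.3%). The names that follow are the genes of smallest p in each direction, given with their values whether or not they passed.

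Among the genes lower in zmp-2, AT3G19508 came next. It is annotated as a LYR-family protein, a family of small proteins known for work on iron-sulphur clusters and respiratory complexes in mitochondria. AT3G19508 had 0.0683, 0.0771 and 0.132 RPM in zmp-2, against 1.42, 1.94 and 0.992 in zmp-1 and 1.43, 1.05 and 1.11 in WT. Every zmp-2 value was below its library's floor of 3 counts, and zmp-1 overlapped WT. The difference was -3.94 (SE 0.56), and its adjusted p of 0.063 in edgeR missed the threshold.

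EBP (AT3G16770) is an ethylene response factor of plant stress and hypoxia signalling. EBP had 38.4, 52.5 and 51.1 RPM in zmp-2, against 101, 107 and 96.2 in zmp-1 and 117, 95.6 and 95.4 in WT. The zmp-1 values overlapped WT and the zmp-2 values lay below, with a difference of -1.10 (SE 0.17, adjusted p 0.109, edgeR). ASN1 (AT3G47340), the dark- and starvation-induced asparagine synthetase also named DIN6, had 119, 88.7 and 103 RPM in zmp-2, against 242, 266 and 181 in zmp-1 and 276, 286 and 208 in WT. It showed the same layout, with zmp-2 alone below WT, and a difference of -1.15 (SE 0.20, adjusted p 0.331). ASN1 overlaps AT3G47341 on the opposite strand, and without a strand-specific count their reads cannot be told apart.

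2 DUF793 genes followed, AT1G74450 and AT1G18740. AT1G74450 had 6.01, 5.86 and 4.31 RPM in zmp-2, against 10.2, 10.8 and 13.9 in zmp-1 and 12.0, 8.33 and 8.79 in WT, a difference of -1.10 (SE 0.22, adjusted p 0.652). AT1G18740 had 16.3, 18.5 and 14.6 in zmp-2, against 27.3, 28.1 and 29.5 in zmp-1 and 21.7, 26.2 and 19.1 in WT, a difference of -0.78 (SE 0.16, adjusted p 0.662). In both genes the alleles did not overlap and zmp-2 was the lower one, a layout found in 6.09% of all genes tested. GLL22 (AT1G54000), a GDSL-lipase-like gene, had 0, 0.154 and 0 RPM in zmp-2, against 2.05, 3.18 and 4.96 in zmp-1 and 1.33, 10.7 and 1.52 in WT, with 2 counts in all of zmp-2. Its ratio rests on those counts, and WT replicate 2 stood apart from the other WT libraries. AT1G67105, a non-coding RNA, had 0.410, 0.848 and 1.26 RPM in zmp-2, against 4.40, 4.07 and 2.98 in zmp-1 and 0.667, 1.12 and 1.41 in WT, so that here zmp-1 was the one away from WT. AT2G01010, an 18S ribosomal RNA gene with 1 near-identical copy, had 13.4, 12.2 and 12.5 in zmp-2, against 18.5, 54.3 and 45.2 in zmp-1 and 31.4, 17.7 and 21.1 in WT.

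Among the genes higher in zmp-2, the protein-coding ones of smallest p after XTH31 were GLR3.5 and SDH8. GLR3.5 (AT2G32390), a glutamate receptor-like cation channel, had 7.44, 9.48 and 8.88 RPM in zmp-2, against 4.86, 3.89 and 4.39 in zmp-1 and 2.67, 3.48 and 2.53 in WT. Both alleles were above WT, and zmp-2 was above zmp-1 by 0.95 (SE 0.21, adjusted p 0.876, edgeR). GLR3.5 overlaps AT2G32400 on the same strand. SDH8 (AT2G46390), a subunit of mitochondrial succinate dehydrogenase, had 14.2, 18.5 and 15.8 RPM in zmp-2, against 10.6, 8.84 and 8.08 in zmp-1 and 15.2, 12.1 and 17.38 in WT. The difference was 0.80 (SE 0.19, adjusted p 0.944), with zmp-1 below WT and zmp-2 overlapping it. SDH8 overlaps AT2G46380 on the opposite strand.

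The 20 genes of smallest p, 10 in each direction, can be laid out against the range of the WT libraries as a description. In 10 of them only zmp-1 lay outside the WT range, in 6 only zmp-2 did, and in 4 both did. XTH31, AT5G11330, AT1G18740 and GLR3.5 made up the last group. In XTH31, AT5G11330 and AT1G18740 the alleles lay on opposite sides of WT.

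Large differences at unadjusted p under 0.05 were mostly in genes with few counts. AT3G21080, annotated as ABC transporter-like, had 0.0683, 0.0771 and 0.729 RPM in zmp-2, against no count in zmp-1, and 0.477, 1.25 and 1.31 in WT. These were 13 counts in all of zmp-2, with 2 of the 3 libraries under their floor of 3 counts, so no fold is given. Downwards, AT1G53163, a membrane-associated kinase regulator gene, differed by -3.39 (SE 0.94), AT1G77640, an ERF/AP2-type factor, by -2.90 (SE 0.92), and AT1G71200, a bHLH factor, by -2.46 (SE 0.78). None of these had an adjusted p at or under 0.05.

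**Figure D3:**
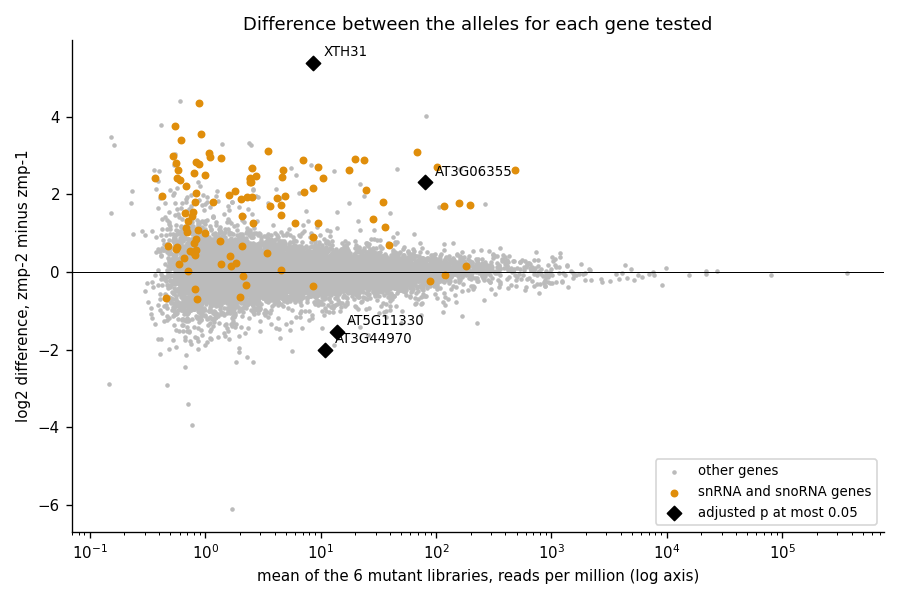
The difference zmp-2 minus zmp-1 on the log2 scale (vertical) against the mean level of the 6 mutant libraries in RPM (horizontal, log axis) for each gene with counts in both alleles; orange points are snRNA and snoRNA genes and black diamonds the 4 called genes. Most genes lie near 0, the orange points lie mostly above 0, and XTH31 stands at 5.40.

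Small non-coding RNA genes of the spliceosome and the nucleolus had mostly higher values in zmp-2. Of 103 differences, 94 were above 0, against 9192 of all 18109 genes tested. snRNAs form the core of the spliceosome and snoRNAs guide the chemical modification of ribosomal RNA. Neither class carries a poly(A) tail in its mature form. These libraries are described as poly(A) RNA, but the study's methods name no step that selects it. The class was singled out after its values had been seen, so its counts are a description. Of 20 snRNA genes tested, 14 were higher in zmp-2 at unadjusted p under 0.05 and 0 lower, against 2.05% and 2.3% of all genes tested, with a median difference of 1.91. Of 83 snoRNA genes, 42 were higher and none was lower. Their median was 1.52. Together these were 56 of 103 genes. Only 103 of 369 annotated genes of the 2 classes were tested, and a gene low in zmp-1 could pass the filter on low counts through zmp-2 or WT alone, so these counts and medians follow in part from the filter. The median over all genes was 0.00. None of the 103 was called, the smallest adjusted p being 0.35 in edgeR, and DESeq2 called 3 of them.

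Summed over all snRNA genes, the level was 2266, 1904 and 1630 CPM, that is, counts per 1000000 of the unscaled library total, in zmp-2, against 1077, 143 and 70.1 in zmp-1 and 2380, 911 and 2617 in WT. zmp-1 replicates 2 and 3 stood far below the other libraries, and zmp-1 replicate 1 was within the range of WT. For snoRNA genes the sums were 1234, 800 and 786 CPM in zmp-2, against 522, 587 and 451 in zmp-1 and 1174, 545 and 1347 in WT. WT replicate 2 lay among the zmp-1 values, so the WT libraries alone spanned a range as wide as the difference between the alleles. An exact permutation test over 3 against 3 libraries cannot go below p = 0.1, and for both classes the alleles did not overlap. Across the alternatives that left out 1 library, the number of these genes higher at unadjusted p under 0.05 ran from 36 without zmp-2 replicate 1 to 69 without zmp-1 replicate 1. With only genes that had at least 10 counts in every library it was 6 of 17.

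**Figure D4:**
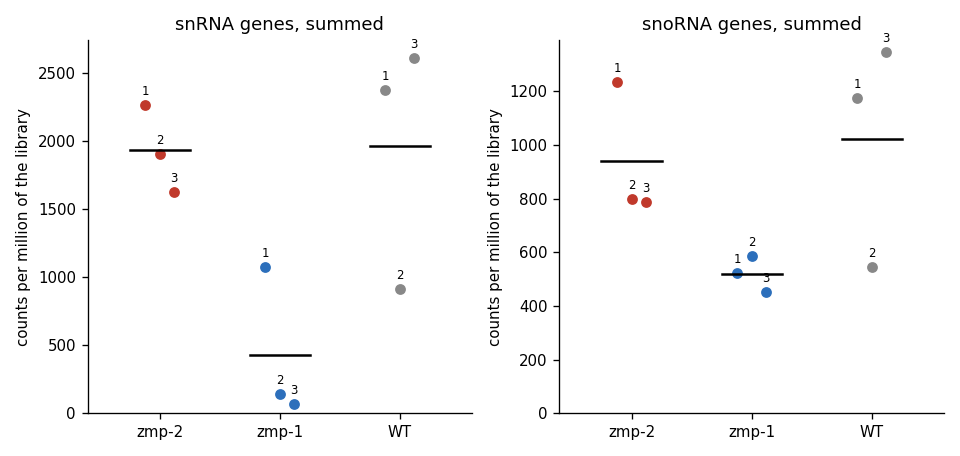
CPM of each library (vertical, starting at 0) summed over snRNA genes on one side and snoRNA genes on the other, by genotype (horizontal); points are libraries with their replicate number and bars the mean of 3. The snRNA sum is 1630 to 2266 in zmp-2 and 70.1 to 1077 in zmp-1, and WT spans 911 to 2617.

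In single members of small p, unlike the snRNA sum, zmp-1 replicate 1 was low as well, so that all 3 zmp-1 libraries lay below WT in U12, U2.3, U4.8 and AT5G07105. U12 (AT1G61275), an RNA of the minor spliceosome, had 12.6, 21.3 and 3.71 RPM in zmp-2, against 1.88, 1.59 and 1.42 in zmp-1 and 8.30, 7.54 and 10.1 in WT, a difference of 2.89 (SE 0.53, adjusted p 0.35, edgeR). U2.3 (AT3G57765), a copy of the U2 RNA that binds the branch point, had 2.73, 1.85 and 0.662 in zmp-2, against 0.251, 0 and 0 in zmp-1 and 1.24, 0.394 and 1.01 in WT. U4.8 (AT5G04305), a copy of the U4 RNA that pairs with U6, had 1.23, 1.39 and 0.795 in zmp-2, against 0.126, 0.177 and 0 in zmp-1 and 1.53, 0.722 and 3.13 in WT, and U4.8 has 6 near-identical copies, so reads may be shared among them. Among snoRNA genes, AT5G07105 had 6.28, 3.70 and 2.65 in zmp-2, against 1.17, 0.177 and 0.567 in zmp-1 and 3.34, 1.97 and 3.54 in WT. AT1G06087, which overlaps AT1G27400 on the same strand, differed by 2.33 (SE 0.55) on the log2 scale. AT3G05335 and AT3G04165 had 72 and 44 counts in all of zmp-2, against 3 and 3 in all of zmp-1, so few that no fold is given. All of these were higher in each zmp-2 library than in any zmp-1 library, as were 59 of the 103 snRNA and snoRNA genes, against 5.8% of all genes tested, and 1 was lower in each, against 6.09%.

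Most of the snRNA genes tested share a run of letters before their start. Plant snRNA genes carry an upstream sequence element, and 7 letters of it, CCCACAT, were searched on both strands in the 100 bases before each annotated start. They were found in 14 of the 20 snRNA genes tested (70%), in 32 of the 82 annotated (39.0%), in 2 of the 83 snoRNA genes tested (2.41%) and in 251 of 27443 protein-coding genes (0.915%). The windows of 4 of the 6 snRNA genes of smallest p are shown, with these letters in capitals, to show where they lie; of the 2 not shown, U1.10 has the letters and U2.3 does not (TAIR10.1, on the strand of the gene; U12 chr1:22603021-22603120 plus, U4.8 chr5:9494231-9494330 minus, U4atac chr4:9096275-9096374 plus, U4.7 chr5:9832835-9832934 plus).
U12: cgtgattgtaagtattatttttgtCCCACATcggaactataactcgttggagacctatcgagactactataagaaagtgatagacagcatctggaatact
U4.8: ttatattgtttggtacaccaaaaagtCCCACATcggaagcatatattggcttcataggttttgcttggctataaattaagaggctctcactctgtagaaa
U4atac: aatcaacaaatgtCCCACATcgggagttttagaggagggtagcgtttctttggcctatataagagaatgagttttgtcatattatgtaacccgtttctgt
U4.7: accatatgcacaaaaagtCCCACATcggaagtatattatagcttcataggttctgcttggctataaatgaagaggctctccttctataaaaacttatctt
The letters ended 69, 67, 80 and 75 bases before the start in these 4 genes, in the order shown. A match is a description of the letters and says nothing of which factor acts there. U2.3 is annotated over 871 bases, and whether its annotated start is the start of the U2 RNA was not tested. U4atac and U4.7 were higher in zmp-2 by 1.38 (SE 0.39) and 2.64 (SE 0.78) on the log2 scale at unadjusted p under 0.05, and neither was called; both were chosen after their values were seen.

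2 further genes of small p or large difference belong to neither class. AT5G09125, a long non-coding RNA that overlaps AT5G09130 on the same strand, had 34.5, 21.8 and 12.7 RPM in zmp-2, against 7.37, 1.06 and 0.850 in zmp-1 and 15.6, 11.7 and 20.9 in WT. The mitochondrial gene ATMG01380 had 269, 83.9 and 111 in zmp-2, against 24.5, 0.353 and 0 in zmp-1 and 273, 30.2 and 285 in WT. By length, the 86 tested genes with under 150 bases of exon had a median difference of 1.46. Nearly all of them were the snRNA and snoRNA genes above. The 4 protein-coding genes among the 86 had a median of -0.51, and the 12 protein-coding genes of 150 to 300 bases one of -0.14. In longer protein-coding genes the median was 0.06 for 161 of 300 to 600 bases and 0.06 for 3065 of 600 to 1200 bases. It was -0.01 for 9585 of 1200 to 2400 bases. Among all tested genes of 600 to 1200 bases, 102 were higher and 52 lower at unadjusted p under 0.05. From 1200 to 2400 bases, 139 were higher and 265 lower. How far RNA length and its recovery during library preparation bear on these values was not tested.

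Genes of the cell wall, of hormones and of stress signalling were described through lists of known members, each by how many passed an unadjusted p of 0.05, beside the 2.05% higher and 2.3% lower among all genes, and by its median, beside the median of 0.00 over all genes. Among the lists, called genes were found only in the XTH list, and there only XTH31.

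The XTH list gave the lowest median. Of 20 XTH genes tested, 7 were lower and 1 higher at unadjusted p under 0.05, against 2.3% and 2.05% of all genes, and the median was -0.55. Of the 20 values, 18 were below 0, against 8917 of all 18109 genes tested. XTH31 was the only XTH gene with p under 0.05 that was higher. XTH22 (AT5G57560), known as TCH4 and induced by touch and brassinosteroid, had 224, 83.4 and 77.1 RPM in zmp-2, against 424, 314 and 226 in zmp-1 and 155, 195 and 148 in WT, with a difference of -1.33 (SE 0.38). zmp-2 replicate 1 nearly reached the lowest zmp-1 library and lay above WT. XTH16 (AT3G23730) had 11.6, 9.71 and 8.94 in zmp-2, against 21.1, 18.7 and 13.3 in zmp-1 and 20.2, 15.9 and 13.8 in WT, a difference of -0.82 (SE 0.21). XTH25 (AT5G57550), the gene next to XTH22, had 1.23, 0.771 and 0.464 in zmp-2, against 2.85, 2.65 and 1.42 in zmp-1 and 3.72, 1.84 and 2.83 in WT. The other members with p under 0.05, named after their values were seen, were XTH6, XTH18, XTH27 and XTH30, with differences between -1.05 and -0.47. Leaving out 1 library at a time changed the count of lower XTH genes to between 3 without zmp-2 replicate 3 and 9 without zmp-1 replicate 3, with 4 without zmp-1 replicate 1.

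Genes of jasmonate, the wound and defence hormone made from plastid lipids, had lower values in zmp-2 where they passed the unadjusted threshold. Among the synthesis enzymes, 2 of 12 were lower and none was higher, against 2.3% and 2.05% of all genes, and the median was -0.22. AOC3 (AT3G25780), an allene oxide cyclase, had 0.819, 0.694 and 0.927 RPM in zmp-2, against 3.602, 2.65 and 3.12 in zmp-1 and 2.29, 5.97 and 9.70 in WT. All 3 zmp-2 values lay below the others, and the difference was -1.96 (SE 0.48, adjusted p 0.944, edgeR). LOX4 (AT1G72520), a 13-lipoxygenase, had 15.2, 5.40 and 11.7 in zmp-2, against 25.5, 19.8 and 30.5 in zmp-1 and 18.6, 17.5 and 56.6 in WT, and LOX3 (AT1G17420), which did not pass, had 13.1, 8.79 and 9.21 in zmp-2, against 18.4, 16.3 and 23.7 in zmp-1. Of 12 JAZ repressors and VSP genes, 2 were lower, with a median of -0.42. These were JAZ7 at -1.45 (SE 0.63) and JAZ10 at -0.98 (SE 0.44), both with overlapping groups.

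Rapid stress transcription factors, which respond within minutes to wounding, touch or cold, gave 5 of 21 lower and 0 higher, beside 2.3% and 2.05% of all genes, with a median of -0.33. WRKY18 (AT4G31800), a defence regulator, had 10.9, 6.01 and 8.55 RPM in zmp-2, against 23.9, 17.7 and 10.2 in zmp-1 and 23.4, 24.5 and 37.8 in WT. zmp-2 lay below WT throughout, and zmp-1 replicate 3 lay among the zmp-2 values. MYB44 (AT5G67300), a factor of abscisic acid and stress responses, differed by -0.80 (SE 0.28), ERF11 (AT1G28370) and ERF4 (AT3G15210), both ethylene response repressors, by -0.99 (SE 0.36) and -0.85 (SE 0.32), and WRKY46, a defence regulator named after its values were seen, by -0.82 (SE 0.36). Without single libraries the count was between 2, without zmp-2 replicate 2 or without zmp-1 replicate 3, and 6, with 3 without zmp-2 replicate 3, without zmp-1 replicate 1 or with every library thinned to the shallowest. Of 10 genes of the cold regulon, 2 were lower, the inducers CBF2 (AT4G25470) at -2.31 (SE 0.67) and CBF1 (AT4G25490) at -1.33 (SE 0.54). CBF2 had 0.273, 1.08 and 0.464 RPM in zmp-2, against 1.42, 2.12 and 5.67 in zmp-1 and 1.14, 2.296 and 0.707 in WT, low levels that overlapped WT in zmp-2. The downstream genes of the regulon, such as COR47, did not pass.

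Auxin-response genes gave 4 of 17 lower and 0 higher, where all genes gave 2.3% and 2.05%, with a median of -0.26. GH3.5 (AT4G27260), an enzyme that conjugates auxin to amino acids, had 25.5, 28.8 and 36.1 RPM in zmp-2, against 58.1, 41.7 and 41.8 in zmp-1 and 47.2, 60.9 and 50.3 in WT. Here zmp-2 lay below both others, by -0.65 (SE 0.19) from zmp-1. GH3.17 (AT1G28130), of the same enzyme family, had 8.33, 13.0 and 10.7 in zmp-2, against 18.8, 18.4 and 15.2 in zmp-1 and 9.63, 18.8 and 11.7 in WT. IAA2 and IAA3, repressors of auxin signalling, differed by -0.57 (SE 0.23) and -0.57 (SE 0.26). This count was 1 without zmp-2 replicate 1 or without zmp-1 replicate 1, and 2 with every library thinned to the shallowest. Among 7 type-A cytokinin response regulators, ARR5 alone passed, at -0.81 (SE 0.29), and among 11 nitrate genes LBD38 alone, a nitrate-responsive repressor of anthocyanin genes, at -0.53 (SE 0.23).

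Of 13 genes of abscisic acid turnover and response, 2 were lower at unadjusted p under 0.05, against 2.3% of all genes tested. They were the catabolic 8'-hydroxylases CYP707A1 (AT4G19230) and CYP707A3 (AT5G45340). CYP707A1 had 1.37, 3.47 and 2.25 RPM in zmp-2, against 5.15, 5.48 and 3.97 in zmp-1 and 3.53, 4.26 and 5.46 in WT, a difference of -1.05 (SE 0.33), and CYP707A3 differed by -1.19 (SE 0.49). Of 8 heat shock factors, 2 were lower, against the same 2.3% of all genes. They were HSFA7A (AT3G51910) with 3.69, 4.09 and 3.58 in zmp-2, against 7.96, 13.4 and 4.39 in zmp-1 and 9.44, 23.0 and 5.46 in WT, and HSFB2B at -0.48 (SE 0.22). In the list of sugar starvation genes and class II trehalose phosphate synthases, all 14 tested values were below 0, against 8917 of all 18109 genes. Their median was -0.33, and ASN1 alone passed the unadjusted threshold. EXL1 (AT1G35140), an EXORDIUM-like gene of low-carbon conditions, had 29.2, 2.31 and 4.24 RPM in zmp-2, against 45.5, 31.8 and 17.9 in zmp-1, and TPS8 (AT1G70290) had 206, 176 and 153 in zmp-2, against 288, 217 and 225 in zmp-1.

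Members higher in zmp-2 at unadjusted p under 0.05 were found in fewer lists. Of 10 evening clock genes, 2 were higher, against 2.05% of all genes, while 5 of the 10 values were below 0 and the median was 0.03. They were the blue-light receptor FKF1 (AT1G68050) with 44.9, 52.8 and 52.7 RPM in zmp-2, against 25.05, 36.4 and 44.8 in zmp-1 and 30.1, 22.1 and 30.7 in WT, and PRR5 (AT5G24470), a repressor of the clock, with 41.0, 55.1 and 60.0 in zmp-2, against 29.4, 37.5 and 42.9 in zmp-1 and 22.3, 20.2 and 33.2 in WT. None of the 9 morning clock genes passed, and the time of harvest is not given. Of 25 nuclear photosynthesis genes, 22 had values above 0, against 9192 of all 18109 genes tested, with a median of 0.12. Only PSAE1, a subunit of photosystem I, passed, at 0.39 (SE 0.17). KNOLLE, the syntaxin of cell plate formation, was the only one of 10 cell division genes that passed, at 0.57 (SE 0.24). LDOX, an anthocyanin synthesis enzyme, was the only one of 6 flavonoid genes, at 2.1 (SE 0.92) and under 1.2 RPM in each mutant library.

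**Figure D5:**
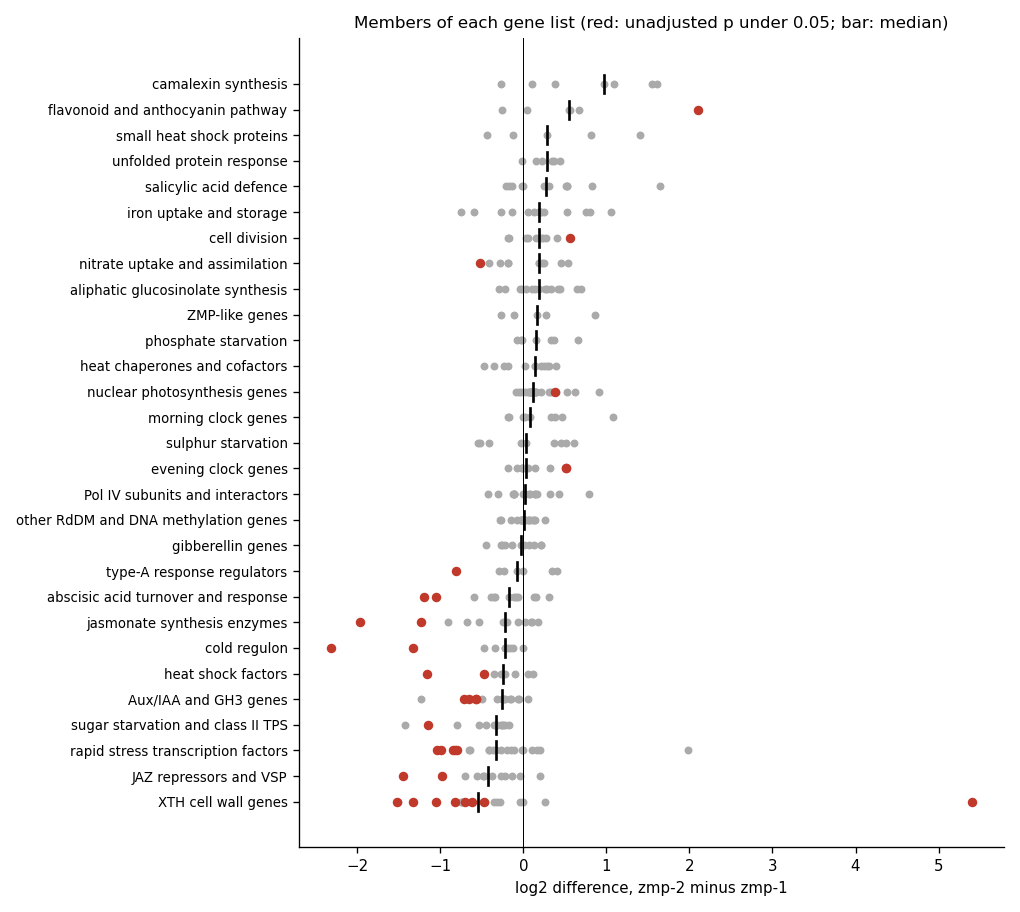
The difference zmp-2 minus zmp-1 on the log2 scale (horizontal) of each tested member of each gene list (rows, ordered by median); red points have an unadjusted p under 0.05 and black bars are medians. The XTH list has the lowest median, -0.55, with XTH31 alone far to the right at 5.40, and the camalexin list the highest, 0.98.

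The smaller counts also rested on single libraries. When 1 library was left out at a time, the count of lower genes was 1 to 2 for jasmonate synthesis, the cold regulon and abscisic acid, 0 to 2 for the JAZ and VSP genes and 0 to 1 for the heat shock factors, and the count of higher evening clock genes was 0 to 2.

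In several lists no member passed an unadjusted p of 0.05. These were the heat chaperones (12 tested), small heat shock proteins (5), morning clock (9), salicylic acid defence (12), camalexin synthesis (7), aliphatic glucosinolates (15), iron (15), phosphate (7) and sulphur (9) nutrition, gibberellin genes (11) and the unfolded protein response (6). The camalexin median of 0.98 came with wide error. CYP71A12, an enzyme of that pathway, had 0.546, 3.39 and 56.6 RPM in zmp-2, against 1.97, 19.4 and 1.84 in zmp-1 and 5.24, 280.3 and 32.8 in WT, so that single libraries were high in every genotype, and the difference of 1.55 (SE 1.56) became -1.85 without zmp-2 replicate 3. IMA1, a peptide of iron signalling, had the smallest p of the iron list, with a difference of 0.81 (SE 0.38).

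The RNA-directed DNA methylation machinery did not differ detectably between the alleles. Of 17 tested Pol IV subunits and interactors, 0 passed an unadjusted p of 0.05, the median was 0.03, and 13 had a 95% interval within 2-fold in both directions. Of 18 other genes of this pathway, 0 passed and 17 had such an interval, with differences between -0.28 and 0.26. NRPD1 (AT1G63020), the largest subunit of Pol IV, had 2.73, 2.85 and 4.50 RPM in zmp-2, against 3.77, 5.30 and 3.68 in zmp-1 and 4.195, 3.74 and 5.76 in WT, a difference of -0.31 (SE 0.29). CHR38 (AT3G42670), a CLASSY-type chromatin remodeller that works with Pol IV, had the smallest p of the list, with 8.06, 9.10 and 8.41 in zmp-2, against 5.99, 5.48 and 7.51 in zmp-1, and a difference of 0.43 (SE 0.20). Of the 5 genes with ZMP-like domains, none passed, and NERD (AT2G16485) differed by 0.16 (SE 0.15).

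Genes that overlap regions with more 24-nt siRNA in zmp-2 than in WT, a list the study made on small RNA libraries of inflorescences, were also read. Here they were read in seedlings and between mutant lines. At the loci of this kind that the study tested by Northern blot, siRNA was higher in zmp-1 as well. Of 146 tested of 483, 2 were higher and 6 lower at unadjusted p under 0.05, against 2.05% and 2.3% of all genes, with a median of -0.04, and the count of lower genes was 2 to 8 when 1 library was left out. AT2G16586 had 4.30, 3.78 and 3.97 RPM in zmp-2, against 5.40, 12.5 and 9.78 in zmp-1 and 9.25, 4.72 and 6.57 in WT, and it has 2 near-identical copies. AT2G31010 had 7.44, 4.93 and 7.88 in zmp-2, against 16.0, 17.7 and 10.3 in zmp-1 and 21.3, 11.9 and 8.79 in WT. Of 99 chloroplast genes tested, 1 was higher, ATCG00010, and 1 lower, ATCG00600. Values below 0 were found in 73 of them, against 8917 of all 18109 genes tested, with a median of -0.12. Of 57 mitochondrial genes, 2 were higher, ATMG01380 and ATMG00710, and 1 was lower, ATMG00960.

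Most genes could be bounded. For 12552 of the 18109 genes, 69.3%, the 95% interval of the difference lay within 2-fold in both directions, and 483 genes had an estimate of 2-fold or more. Precision depended on level. The median half-width of the interval was 1.29 on the log2 scale for the 1310 genes under 1 RPM and 0.42 for the 6074 genes from 10 to 50. The share of genes within 2-fold was 0.534% in the first of these groups and 92.2% in the second, so among the lowest genes a 2-fold difference was not detectable at this depth.

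Genes called against WT were then read between the alleles. These comparisons share the WT libraries, and the zmp-2 libraries that made a call against WT are the same that are then set against zmp-1, which favours zmp-2 as the extreme group. The counts below are therefore a description. In zmp-2, 32 genes were called against WT (0.177% of those tested), and in zmp-1, 8 (0.0442%). Of the 31 called in zmp-2 other than ZMP, 2 were called between the alleles, XTH31 and AT5G11330, 15 had an unadjusted p under 0.05, against 4.36% of all genes, 7 of them higher and 8 lower in zmp-2, and 15 had an interval within 2-fold. 5 genes were called in both alleles, among them XTH31 in opposite directions. Of the 31, 28 differed from WT in the same direction in zmp-1 as in zmp-2, which the shared WT libraries favour.

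Genes named from these comparisons were chosen after their values were seen. Heat-induced genes were among those called in zmp-2. HSP101, a disaggregating chaperone, had 4.98, 7.32 and 7.35 RPM in zmp-2, against 7.20, 8.84 and 7.23 in zmp-1 and 30.03, 22.7 and 86.8 in WT, and the difference between the alleles was -0.23 (SE 0.44). MBF1C (AT3G24500), a coactivator of heat and drought responses, had 2.53, 5.63 and 3.84 in zmp-2, against 5.57, 6.89 and 4.25 in zmp-1 and 19.4, 22.1 and 23.54 in WT. AT5G35935, a pseudogene, had 2.19, 1.93 and 1.79 RPM in zmp-2, against 2.72, 3.18 and 3.12 in zmp-1, and 0.0953, 0.262 and 0 in WT, and AT5G24240 was at most 0.464 in zmp-2 and at most 0.142 in zmp-1, with 2.19, 4.59 and 4.04 in WT. In each of these 4 genes both alleles lay to one side of WT, and none had an unadjusted p under 0.05 between the alleles.

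In other genes called in zmp-2 the zmp-1 values lay between zmp-2 and WT. OXS3, a stress tolerance gene, had 56.3, 53.3 and 53.9 RPM in zmp-2, against 40.5, 37.6 and 40.7 in zmp-1 and 16.5, 22.8 and 12.6 in WT. CYP706A6 had 37.4, 34.5 and 37.6 in zmp-2, against 28.6, 15.2 and 27.1 in zmp-1 and 11.0, 8.00 and 9.70 in WT. MYBL2, a repressor of flavonoid synthesis, had 28.3, 36.5 and 37.2 in zmp-2, against 21.7, 20.9 and 28.9 in zmp-1 and 9.34, 12.3 and 15.66 in WT. Downwards, EXL2 had 39.9, 27.8 and 26.4 in zmp-2, against 55.5, 52.7 and 44.5 in zmp-1 and 75.8, 83.0 and 70.1 in WT. AT1G64380, an ERF/AP2-type factor, had 1.37, 2.24 and 2.45 in zmp-2, against 3.35, 7.25 and 5.53 in zmp-1 and 11.4, 7.81 and 8.39 in WT, and SAG20 had 19.8, 14.2 and 16.0 in zmp-2, against 22.9, 30.9 and 25.4 in zmp-1 and 31.4, 34.97 and 41.1 in WT. The alleles did not overlap in these genes except in MYBL2, where zmp-1 replicate 3 was above zmp-2 replicate 1. Among all genes tested the alleles did not overlap in 11.9%, and the choice of genes by their zmp-2 values favours such a layout. None of the genes was called between the alleles. AT5G46710, called in zmp-1 alone, ran the other way, with 16.8, 19.7 and 15.6 in zmp-2, against 27.7, 22.6 and 25.8 in zmp-1 and 7.72, 11.3 and 9.09 in WT.

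Markers of seeds differed between libraries as well. The 4 seed storage and oil body genes checked summed to 1.85 to 14.5 RPM in zmp-2, against 14.5 to 38.1 in zmp-1 and 1.64 to 28.4 in WT, and of the 3 that were tested, CRA1 and OLEO1 had an unadjusted p under 0.05. Their part in the other differences was not tested. Of the other markers, the 5 leaf genes, 3 of the 6 root genes and 1 of the 7 flower genes passed the filter on low counts, and no unadjusted p among them was under 0.05.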

How the data were processed

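Libraries described as poly(A) RNA, of 3 biological replicates per genotype, were sequenced by the authors, trimmed with Trim Galore and aligned to TAIR10 with STAR 2.5.3a, per the labels and the methods. The methods name mRNA-seq libraries made from total RNA and no step of poly(A) selection. The deposited files hold whole-number counts per gene and library, made by the authors with STAR and not normalised. The strand setting is not given in the sources used here, so overlapping genes on opposite strands cannot be told apart. Overlaps on the same or the opposite strand are not stated for every gene named, MYB44 among them. From these counts, TMM-scaled RPM were computed, and zmp-2 was tested against zmp-1 with edgeR 4.0.16 in R 4.3.3 (quasi-likelihood test, all 9 libraries in one fit with genotype as the only term, genes kept by filterByExpr, Benjamini-Hochberg adjustment, threshold 0.05). The p-values set each difference against the spread between libraries of the same genotype, estimated from all 9 libraries with information shared across genes. With a single line per allele, they do not cover variation between independent lines. DESeq2 1.42.0, other scalings, other filters, thinning to the shallowest library, a replicate block and leaving out each library were run as alternatives. Read counts are not independent molecules, and the floor of 3 counts covers counting error only. No 2 libraries held identical values. The tests were tried on simulated counts.

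Genes named were ZMP and its 3 nearest tested neighbours on each side, the 10 genes of smallest p in each direction, the 5 with the largest difference in each direction among those with unadjusted p under 0.05 and no overlap between the alleles, at most 4 members of smallest p in each list, and genes needed to state a range; other names are given as chosen by position or after their values were seen. The genotypes, the lists and the genes were chosen with earlier results of these data known. Gene positions, products and upstream sequences came from the RefSeq annotation of TAIR10.1, and near-identical copies were sought with blastn 2.17.0 at 95% identity over 50% of the length.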

Additional observations from a re-analysis of the deposited data

Results flagged for a closer look

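The test of zmp-2 against zmp-1 asks whether the 2 lines differ, and so whether their differences from the same WT libraries differ. A difference made by the allele and one carried elsewhere in the line cannot be told apart by it. The test passed for 4 genes. XTH31 differed by 5.40 on the log2 scale (higher in each zmp-2 library than in any zmp-1 library), AT3G06355 by 2.31, AT3G44970 by -2.01 and AT5G11330 by -1.54. Relative to WT, XTH31 was above in zmp-2 and below in zmp-1, and AT5G11330 was below in zmp-2 and just above in zmp-1. AT3G44970 and AT3G06355 differed from WT in zmp-1 while the zmp-2 libraries overlapped WT. AT3G06355 overlaps a ribosomal RNA gene and has 1 near-identical copy. Its adjusted p in edgeR reached 0.240 when 1 library was left out.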

How the results depend on the processing

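The count of 4 called genes was 16 with DESeq2, 8 with no filter and 1 to 27 when 1 library was left out, and 3 to 6 under the other alternatives run. ZMP was -0.68 (unadjusted p 0.123, edgeR) with every library thinned to the shallowest and -1.18 to -0.87 without single libraries. With a replicate block, 4 genes were called, the same 4, and ZMP was -1.01 with an unadjusted p of 0.00658 in edgeR. Same-numbered libraries of zmp-2 and zmp-1 had correlations of 0.143, -0.0830 and -0.0854 in their deviations from the group means. Between different numbers, zmp-2 replicate 2 with zmp-1 replicate 3 had 0.167, and zmp-2 replicate 3 with zmp-1 replicate 2 had 0.131. The remaining pairs ran from -0.103 to -0.0313. Whether libraries were handled together under unlike numbers was not tested, and a block by number does not cover it. The direction turned for AT5G63710 with the replicate block (-0.0112). Without single libraries, AT5G63710 ran from -0.174 to 0.152, AT5G63680 from -0.0143 to 0.175 and CYP71A12 from -1.85 to 3.40. Of the 1457 values of named genes under alternatives, 1420 kept their direction and their side of the threshold. Only 4 of these 90 genes were called, so for most values staying uncalled was nearly given, and the count says little of the calls. Among the other values, 13 lost a call, 20 gained one and 4 turned direction, and all 13 lost calls were of the 4 called genes. The cause was not tested for any of these. Depth limits the comparison at low levels, and zmp-1 has both the deepest and the shallowest library.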
